A study of Sus scrofa with 48 samples.

Results

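The circadian clock genes described here are the 10 genes CLOCK, ARNTL, PER1, PER2, PER3, CRY1, CRY2, NR1D1, NR1D2 and DBP, measured in pig whole blood on oligonucleotide arrays. A spot of the array belonged to a gene when its gene name equalled the symbol. Of the 10 genes, 8 had spots, 13 in all, and all 13 were retained in the deposited normalized table, which holds 37113 of the 60306 non-control spots and names 10944 genes. No spot carried the name CLOCK or DBP.

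The study asked how selection for feed efficiency and a diet change the blood transcriptome. The animals were purebred French Large White castrated males from 2 lines selected in opposite directions for residual feed intake (RFI), a measure of feed efficiency that is low in a pig eating less than its body size and weight gain call for. Within each line, pigs ate freely either a high-fat, high-fiber (HF) diet or a low-fat, low-fiber (LF) diet, which gave the 4 groups low RFI HF, low RFI LF, high RFI HF and high RFI LF, each of 12 pigs with 1 array per pig. All 48 pigs were killed at 132 days of age, 2 h after the first meal of the morning. Blood was taken at bleeding, and no other time of day was sampled. The clock time of sampling of each pig within the morning was not given in the sources used here.

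The clock is a loop of transcription factors that runs in nearly every cell with a period of about a day. CLOCK and ARNTL (also called BMAL1) pair to switch on the PER and CRY genes, whose proteins return to the nucleus and block that pair. A side loop holds NR1D1 and NR1D2 (REV-ERB alpha and beta), which the same pair switches on and which repress ARNTL. DBP is an output of the loop and drives further daily genes. In blood, leukocytes carry the clock, and PER1 is also a direct target of the glucocorticoid receptor.

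The probes behind the results are shown first, as printed in the scanner files. Each probe has 60 bases. For ARNTL, PER3, CRY2 and NR1D1 the whole probe is given, because these genes stood on opposite sides of the co-variation described further on. Only the last 30 bases are given for PER1, the gene with the lowest P-value for diet, and for PER2, which stood apart from the others. The capitals in the PER2 probe mark a CT repeat of 16 bases at its 3′ end.
ARNTL spot 1: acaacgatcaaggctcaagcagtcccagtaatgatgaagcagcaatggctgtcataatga
PER3 spot 1: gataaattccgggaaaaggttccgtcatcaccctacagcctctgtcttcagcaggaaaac
CRY2 spot 1: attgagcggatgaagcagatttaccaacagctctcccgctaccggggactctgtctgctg
NR1D1 spot 1: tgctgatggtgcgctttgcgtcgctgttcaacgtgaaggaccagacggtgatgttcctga
NR1D1 spot 2: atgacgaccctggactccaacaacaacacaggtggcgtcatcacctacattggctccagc
PER1 spot 1, bases 31 to 60: agtggcatttgtgtttttgatattgtgtct
PER2 spot 1, bases 31 to 60: ccatcaaccagcctTCTCTCTCTCTCTCTC

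The 13 probes differed in base composition and in how far they stood above the local background. The share of G and C was 55.0% in both NR1D1 and both CRY2 probes, 48.3% in the PER3 probe, 45.0% in the PER1 and PER2 probes and in ARNTL spots 1 and 2, 38.3% in ARNTL spot 3, and 35.0% in both CRY1 probes and the NR1D2 probe. The median ratio of signal to local background was 117 for PER1 and 35.8 for NR1D2, against 2.50 for PER3 and 2.14 and 2.02 for the NR1D1 spots. Of the 13 spots, 12 were well above background on all 48 arrays, and NR1D1 spot 2 on 45. PER3 and NR1D1 were therefore read close to the background. Probes of the same gene shared stretches of at most 7 bases, so that they were separate readings of the gene.

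Across all arrays, 40771 to 46727 spots were well above background and none was saturated. The arrays lay on 6 slides of 8 arrays, with 2 pigs of each group per slide, and were scanned on 3 days. The first principal component of all gene values, after removal of the group means, held 43.9% of the variance, and its correlation with array brightness was 0.56. One deposited column, that of high RFI HF replicate 1, differed from its own scanner file and was rebuilt from it. High RFI LF replicate 9 had the highest PER1 and ARNTL levels of all 48 pigs.

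None of the 8 clock genes was differentially expressed between the RFI lines. At an adjusted P-value below 0.05 (limma, adjusted over 10944 genes), 0 of 8 were called, against 3.29% of all genes. At P below 0.01 with a fold change (FC) above 1.1, again 0 of 8 passed, against 6.2% of all genes, and 0 of 8 had an unadjusted P below 0.05, against 13.0% of all genes. The median difference of the 8 genes, low minus high RFI, was 0.07 on the log2 scale, and that of all genes was 0.03. It was above 0 in 5 of 8 clock genes and in 63.9% of all genes.

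ARNTL, the activator of the loop, came closest among the genes. Its normalized log2 level (log2 signal minus the array's median) ran from -0.66 over a median of -0.19 to 0.01 in low RFI HF pigs, from -0.43 over -0.21 to 0.03 in low RFI LF pigs, from -0.69 over -0.41 to -0.09 in high RFI HF pigs, and from -0.56 over -0.36 to 0.45 in high RFI LF pigs. The groups overlapped, but 22 of 24 low RFI pigs lay above the median of the high RFI pigs. Line means were -0.22 ± 0.16 for low RFI and -0.33 ± 0.22 for high RFI (SD, n = 24 each), a difference of 0.11 ± 0.056 (SE, limma P = 0.0505, adjusted P = 0.385, 95% interval -0.00025 to 0.225). Without high RFI LF replicate 9 the difference was 0.15 ± 0.047 (SE, limma P = 0.00313, adjusted P = 0.0727), which was nearer to the adjusted threshold but did not pass it. That fit met P below 0.01 with FC above 1.1, and its P was the lowest of the 48 fits that each left out 1 pig. Over these fits the difference was 0.098 to 0.146, with an unadjusted limma P of 0.00313 to 0.0845. The 3 ARNTL spots gave differences of 0.10, 0.11 and 0.13. Within slides the difference ranged from -0.22 to 0.25 and was above 0 in 5 of 6 slides.

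Blood cell markers differed between the lines as well. LCK, a kinase of T cells, was overexpressed in low RFI pigs by 0.21 ± 0.060 (SE, limma adjusted P = 0.0339), and SLC4A1, the anion exchanger of red cells, by 0.26 ± 0.074 (SE, limma adjusted P = 0.0401). The SLC4A1 means of low and high RFI pigs were 0.95 and 0.94 with the HF diet and 1.17 and 0.67 with the LF diet, with an interaction of -0.48 ± 0.15 (SE, limma P = 0.00205, adjusted P = 0.882). The B cell genes MS4A1 and BLNK, the neutrophil receptor CXCR2 and the monocyte receptor CD14 were underexpressed in low RFI pigs, by log2 differences of -0.36, -0.23, -0.42 and -0.47. The CD14 means of low and high RFI pigs were 1.52 and 2.28 with the HF diet and 1.93 and 2.10 with the LF diet. The CD14 interaction was -0.59 ± 0.27 (SE, limma P = 0.0326, adjusted P = 0.882). Of the measured markers, 3 of 6 monocyte and 1 of 6 neutrophil genes lay above 0 for line. In the lists of markers other than that of B cells, 1 of 6 neutrophil, 1 of 6 T cell, 0 of 4 NK cell, 1 of 6 monocyte, 1 of 7 erythroid and 0 of 2 platelet genes passed the adjusted threshold for line, against 3.29% of all genes. With the mean levels of 4 marker lists as covariates the ARNTL difference was 0.06 (limma adjusted P = 0.476), and that of NR1D1, described next, 0.03 (limma adjusted P = 0.815). From array values of whole blood alone, fewer cells of a type and less RNA per cell cannot be told apart. The part of cell composition in the ARNTL difference was not tested beyond the fit with marker lists. In the paper, counts of neutrophils, lymphocytes and monocytes did not differ between the lines, and red cells were more numerous in low RFI pigs. Those counts did not enter the fits here.

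NR1D1, which represses ARNTL, was higher on average in low RFI pigs with both of its spots, a difference that did not pass the adjusted threshold. Spot 1 had means of -2.28 ± 0.16 in low RFI HF pigs, -2.26 ± 0.25 in low RFI LF pigs, -2.49 ± 0.19 in high RFI HF pigs and -2.42 ± 0.16 in high RFI LF pigs (SD, n = 12 each). This was a line difference of 0.19 ± 0.058 (SE, limma P = 0.00207, adjusted P = 0.0652 over 37113 spots). Spot 2 had means of -2.48, -2.42, -2.48 and -2.59 in the same order, with SDs of 0.40 to 0.44, and a difference of 0.08 ± 0.12 (SE, limma P = 0.491). Spot 1 was the only one of the 13 spots with P below 0.01 and FC above 1.1, a share that 5.78% of all spots reached, and the only one with an unadjusted P below 0.05, against 12.0% of all spots. No clock gene spot passed the adjusted threshold, which 2.77% of all spots did. As the mean of both spots, NR1D1 stood at -2.36 ± 0.27 for low RFI and -2.50 ± 0.26 for high RFI (SD, n = 24 each), a difference of 0.14 ± 0.077 (SE, limma adjusted P = 0.508, 95% interval -0.019 to 0.290). This value moved with the processing. It was 0.19 (limma adjusted P = 0.0518) when only spots well above background on all arrays entered, which left spot 1 as the only reading. With the background-corrected signal it was 0.25 (limma adjusted P = 0.272). The values ran from -2.77 to -1.78 in low RFI pigs and from -3.09 to -2.06 in high RFI pigs and thus overlapped over most of their range.

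Its paralog NR1D2 ran from 1.26 over a median of 1.77 to 2.37 in low RFI pigs and from 1.08 over 1.66 to 2.26 in high RFI pigs. The difference was 0.11 ± 0.080 (SE, limma adjusted P = 0.697, 95% interval -0.054 to 0.269). The repressors CRY1 and CRY2, whose proteins inhibit the CLOCK and ARNTL pair, differed by 0.05 (95% interval -0.041 to 0.147) and 0.08 (95% interval -0.107 to 0.274). CRY1 had medians of -0.39 and -0.44 in low and high RFI pigs, and CRY2 of -0.61 and -0.56. The PER genes, which form the inhibitory complex with the CRY proteins, had differences of -0.02 for PER1, -0.04 for PER2 and -0.03 for PER3, each with an interval that spanned 0. The widest of these 3 intervals, that of PER1, ran from -0.245 to 0.197. Without high RFI LF replicate 9 the PER1 line difference was 0.05 (limma adjusted P = 0.967).

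**Figure D1:**
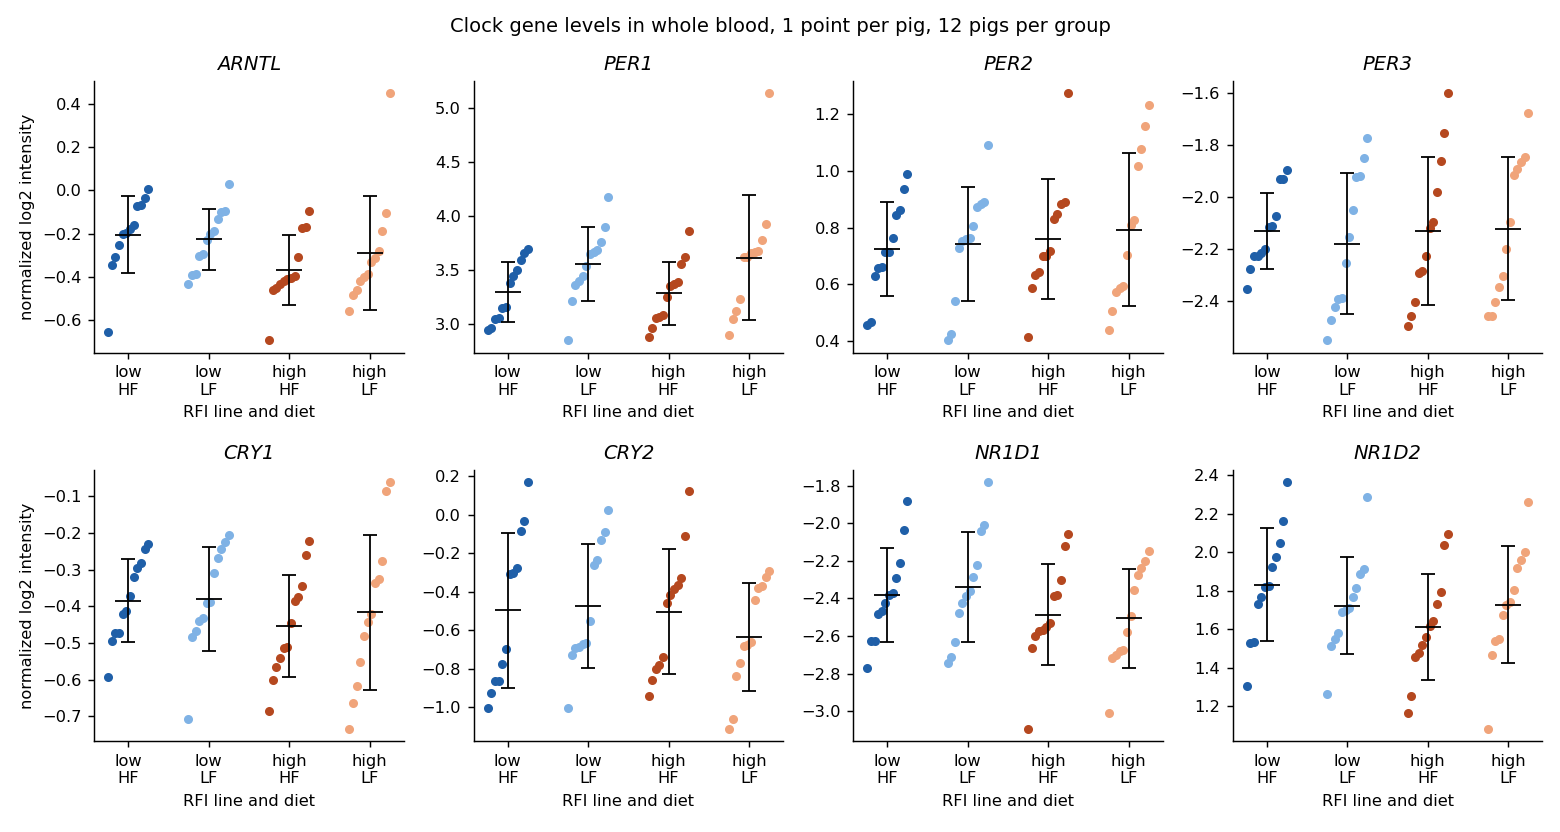
Normalized log2 intensity (log2 signal minus the array's median) of the 8 clock genes in the 4 groups, 1 point per pig in ascending order within a group (12 pigs each), with the mean (horizontal line) and 1 SD (bar); each panel has its own axis. PER1 sat lower in HF than in LF pigs of both lines, and high RFI LF replicate 9 stood apart at 5.13 in PER1 and 0.45 in ARNTL.

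Between diets, no clock gene passed the adjusted threshold, as did none of the 10944 genes (0.0%; limma). Of the 8 clock genes, 1 had an unadjusted P below 0.05, against 1.94% of all genes, and 0 of 8 had P below 0.01 with FC above 1.1, against 0.228% of all genes. The median diet difference, HF minus LF, was -0.02 for the clock genes and 0.01 for all genes. The 1 gene was PER1, the period gene that glucocorticoids also switch on.

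PER1 had a lower mean in pigs fed the HF diet in both lines, a difference that did not pass the adjusted threshold. It ran from 2.94 over a median of 3.27 to 3.69 in low RFI HF pigs and from 2.85 over 3.59 to 4.18 in low RFI LF pigs. In the high RFI line it ran from 2.87 over 3.30 to 3.85 with the HF diet and from 2.90 over 3.64 to 5.13 with the LF diet. In both lines the LF median was the higher, and 21 of 24 HF pigs lay below the median of the LF pigs, although the ranges overlapped. The mean was 3.29 ± 0.28 (SD, n = 24) in HF pigs and 3.58 ± 0.47 (SD, n = 24) in LF pigs, a difference of -0.29 ± 0.11 on the log2 scale (SE, limma P = 0.0107, FC 1.22, 95% interval -0.513 to -0.071). Over all genes its adjusted P was 0.9995, and over the alternative settings the difference was -0.31 to -0.28 with an adjusted P of at least 0.745. Without high RFI LF replicate 9 the difference was -0.22 ± 0.090 (SE, limma P = 0.0164, adjusted P = 0.9996). Over the 48 fits that each left out 1 pig, it lay between -0.32 and -0.22 with an unadjusted P of 0.00417 to 0.0194. Within slides it ranged from -0.59 to 0.0016 and was below 0 in 5 of 6, and within scan days from -0.44 to -0.06.

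The other 7 clock genes differed between diets by -0.03 to 0.05 on the log2 scale. Their 95% intervals all spanned 0, and the widest, that of CRY2, ran from -0.136 to 0.244. For the interaction of line and diet, 0 of 8 passed the adjusted threshold, as did none of all genes (0.0%; limma), and 0 of 8 had P below 0.01 with FC above 1.1, against 0.219% of all genes. None of the 8 had an unadjusted P below 0.05, against 2.33% of all genes. The PER1 diet difference was not shown to differ between the lines, with an interaction of 0.07 ± 0.22 (SE, limma P = 0.738), which was -0.06 ± 0.18 (SE, limma P = 0.722) without high RFI LF replicate 9. The interaction with the lowest P-value was that of NR1D2, 0.22 ± 0.16 (SE, limma P = 0.169, adjusted P = 0.882).

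**Figure D2:**
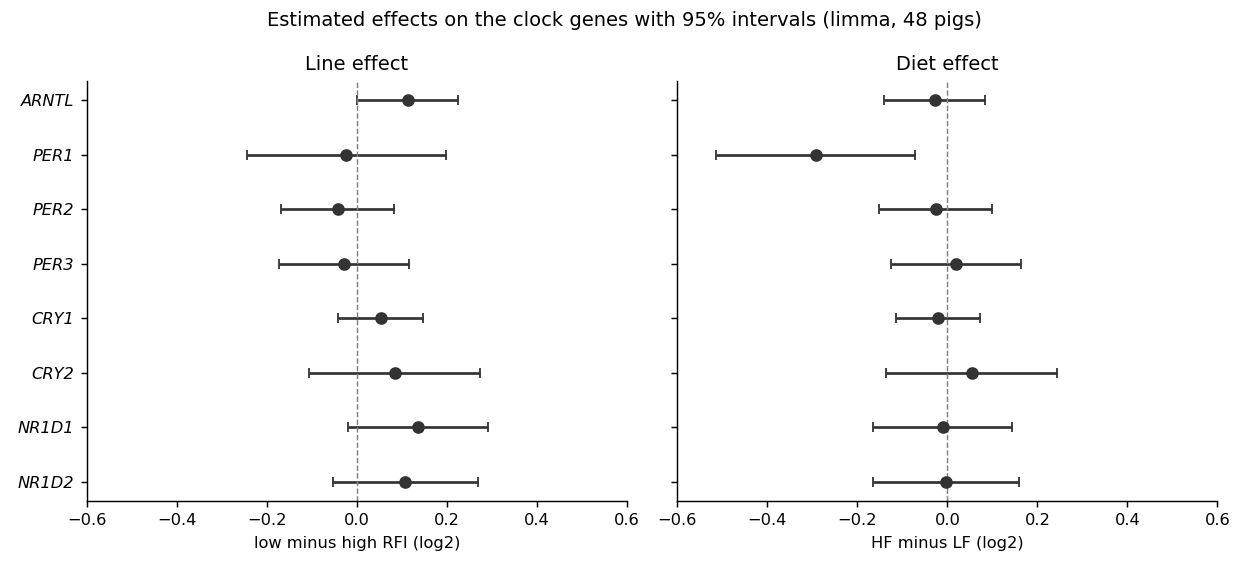
Difference in normalized log2 intensity between lines (left, low minus high RFI) and between diets (right, HF minus LF) for the 8 clock genes, with 95% intervals from limma over 48 pigs; the dashed line marks 0. Only the PER1 diet interval, -0.513 to -0.071, lay wholly on 1 side of 0, and its adjusted P was 0.9995.

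Other genes of the clock were listed to set the members beside their network. Of 36 such genes, 28 had a spot and 20 were retained. For line, 0 of 20 passed the adjusted threshold in either direction, with a median difference of 0.01. The 3 with the lowest P-values were DDB1, a subunit of an E3 ubiquitin ligase, NFIL3, a repressor that binds the same sites as DBP, and KLF10, a repressor that ARNTL controls. DDB1 was 4.67 ± 0.24 in low RFI pigs and 4.44 ± 0.26 in high RFI pigs (SD, n = 24 each), a difference of 0.23 ± 0.071 (SE, limma adjusted P = 0.0610). NFIL3 differed by -0.21 ± 0.11 (SE, limma adjusted P = 0.422) and KLF10 by -0.12 ± 0.072 (SE, limma adjusted P = 0.541). For diet and for the interaction, 0 of 20 passed, with medians of -0.01 and 0.01. When all non-control spots were fitted, 1 of the 28 passed for line, against 2.08% of all 14604 genes. This was HLF, a relative of DBP whose spot was not retained, at -1.85 ± 0.30 in low RFI and -2.12 ± 0.21 in high RFI pigs (SD, n = 24 each), a difference of 0.28 ± 0.072 (SE, limma adjusted P = 0.0237).

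Some of the other clock genes were not well above background on most arrays. The spots of NPAS2, a partner of ARNTL that can take the place of CLOCK, TIMELESS and TEF, a relative of DBP, were well above background on 16, 22 and 1 of 48 arrays. A spot named by a transcript cluster and described in the scanner files as similar to horse Clock lay outside the naming rule. It was well above background on 6 of 48 arrays, with a median signal of 43 against a local background of 32.5. CLOCK was not analysed further here.

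Over the 48 pigs, clock genes moved together in a pattern with 2 opposed sides. Values were taken as deviations from the group means, and pigs were permuted within groups (100000 permutations, 2-sided, Benjamini-Hochberg over the 28 pairs). At an adjusted P below 0.05, 20 of 28 pairs were correlated, 8 positively and 12 negatively. The weakest of the 20 had an absolute r of 0.32, a value that 46.2% of all 59880096 pairs of genes reached. On one side stood ARNTL, CRY1, NR1D2 and PER1, and on the other NR1D1, CRY2 and PER3. Of the 21 pairs among these 7 genes 19 passed, and the exceptions were PER1 and CRY1 (r = 0.20, permutation adjusted P = 0.331; r = -0.03 without high RFI LF replicate 9) and CRY1 and NR1D1 (r = -0.22, permutation adjusted P = 0.182). For CRY1 and NR1D1, r was -0.42 with the background-corrected signal, -0.36 with slide as a block and 0.17 with the brightest spot of a gene. PER2 joined neither side. Its correlations ran from -0.32 to 0.13, and of its 7 pairs 1 passed, that with NR1D2 (r = -0.32, permutation adjusted P = 0.047). By rank this pair did not pass (rho = -0.31, permutation adjusted P = 0.056), and r was -0.17 with the replicate block.

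The pair CRY2 and NR1D1 had the highest correlation, with r = 0.79 (rho = 0.77, permutation adjusted P = 9.3e-05, at the smallest P the permutations can give, 1e-05, before adjustment). PER3 followed NR1D1 with r = 0.66 (rho = 0.65) and CRY2 with r = 0.49 (rho = 0.50). ARNTL followed CRY1 with r = 0.55 (rho = 0.53) and NR1D2 with r = 0.48 (rho = 0.47). These 5 pairs kept their sign in all 6 slides and all 4 groups. The PER3 relations depended on the processing, since with normexp and quantile normalization r was -0.0093 for PER3 and NR1D1 and 0.12 for PER3 and CRY2.

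Between the sides the signs were negative. ARNTL was opposed to CRY2 with r = -0.58 (rho = -0.61, permutation adjusted P = 9.3e-05), to its repressor NR1D1 with r = -0.57 (rho = -0.56, permutation adjusted P = 0.00021) and to PER3 with r = -0.52 (rho = -0.49, permutation adjusted P = 0.000504). NR1D1 and its paralog NR1D2 were opposed as well, with r = -0.49 (rho = -0.44). The relations of NR1D1 differed between its spots. Spot 1, well above background on all 48 arrays, had r = -0.02 with NR1D2, 0.30 with PER3, 0.40 and 0.41 with the CRY2 spots and -0.34 to -0.09 with the ARNTL spots. Spot 2, well above background on 45 arrays, had r = -0.61 with NR1D2, 0.71 with PER3, 0.77 and 0.71 with the CRY2 spots and -0.70 to -0.30 with the ARNTL spots. ARNTL and PER3 had r = -0.15 with normexp and quantile normalization. Without the 2 pigs farthest from the ARNTL median, r was -0.62 with CRY2, -0.60 with NR1D1 and -0.46 with PER3. One positive pair rested on few pigs. ARNTL and PER1 had r = 0.46 (permutation adjusted P = 0.022), but r = 0.17 without the 2 pigs farthest from the ARNTL median and r = 0.14 without high RFI LF replicate 9 alone. Without that pig r was 0.45 for ARNTL and CRY1 and -0.37 for PER2 and CRY1, and the near-zero values of PER2 with ARNTL and PER1 went to -0.13 and -0.04.

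The same pattern ran through the arrays as a whole. The correlation with the first component of all genes was -0.93 for CRY2, -0.84 for NR1D1 and -0.69 for PER3, against 0.66 for ARNTL, 0.63 for NR1D2, 0.49 for PER1, 0.47 for CRY1 and -0.19 for PER2. The median absolute value over all genes was 0.57. After removal of this component, a fit added after the data were seen, 1 of 28 pairs remained past the threshold, PER3 and CRY2, and with the opposite sign (r = -0.60, a value that 0.942% of all gene pairs reached). The median absolute r of the 28 pairs fell from 0.45 to 0.18. The pair CRY2 and NR1D1 then stood at r = -0.02, ARNTL and NR1D1 at -0.03, and ARNTL and CRY1 at 0.36.

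**Figure D3:**
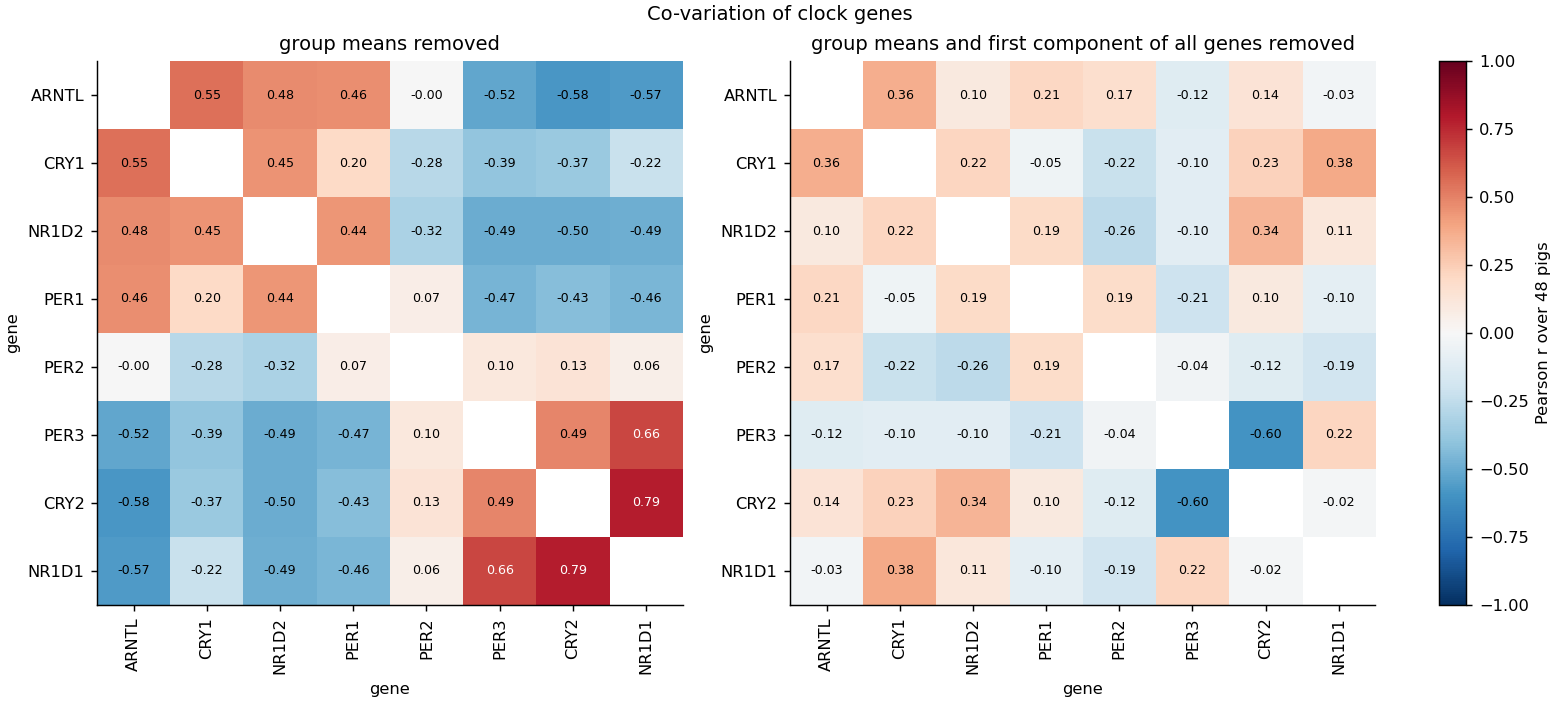
Pearson r over 48 pigs between the 8 clock genes, with group means removed (left) and with the first principal component of all genes removed as well (right); the colour scale runs from -1 to 1. On the left, ARNTL, CRY1, NR1D2 and PER1 are opposed to PER3, CRY2 and NR1D1 in 11 of 12 pairs past the threshold, CRY1 and NR1D1 (-0.22) being the exception, and on the right only PER3 and CRY2 (-0.60) passed the threshold.

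Base composition and brightness of the probes moved with this axis. Over the 37113 retained spots, the correlation with the first component had a median of 0.38 for probes with under 40% G and C, 0.10 for those from 40% to under 50% and -0.58 for those with 50% or more. Across spots, which are not independent, Spearman's rho was -0.32 with the G and C share and 0.42 with the ratio of signal to background. The CRY2 and NR1D1 probes, at 55.0%, fell in the highest class, and the dim PER3 and NR1D1 spots were among those near the background. The 2 CRY2 spots had correlations with the component of -0.74 and -0.91, although spot 2 stood at 14.2 times the background and spot 1 at 3.70 times. The correlation with array brightness itself was -0.65 for NR1D1, -0.45 for PER3, -0.43 for CRY2 and 0.50 for NR1D2, and between -0.12 and 0.27 for the other 4 genes. With brightness as a covariate, 17 of 28 pairs were past the threshold. The part of base composition in the pattern was not tested.

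The PER2 probe differed from the others by its CT repeat. The 12 letters CTCTCTCTCTCT were found in the probes of 7 other retained spots (0.0189% of all), on the strand as printed, and the letters of the other strand, AGAGAGAGAGAG, in 4 (0.0108%). Those 7 spots correlated with PER2 at r = 0.25 to 0.42 over pigs, with a median of 0.35, where the median over all other spots was -0.02. None of the 7 reached an r of 0.5, and 5.41% of all other spots did. Among the 20 spots most like PER2, 0 held the repeat.

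Spots of the same gene shared RNA and gave a measure of how well a gene was read. The 3 ARNTL spots correlated at r = 0.83, 0.60 and 0.41 over pigs, the 2 CRY2 spots at 0.61, the 2 CRY1 spots at 0.50 and the 2 NR1D1 spots at 0.45. Of the NR1D1 spots, spot 2 correlated more closely with both CRY2 spots than with spot 1 of its own gene, and spot 1 did not. Both CRY2 spots likewise correlated more closely with NR1D1 spot 2 (r = 0.77 and 0.71) than with each other.

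The clock genes were also set against the markers of blood cells. Of 56 relations between the 8 genes and the mean levels of 7 marker lists, 27 had a permutation adjusted P below 0.05, at least 3 for each gene but PER2, which had 0. Of the 76572 such relations of all genes, 35.4% passed, so that a called relation was common on these arrays. CRY2 followed the erythroid markers with r = 0.91 (rho = 0.91, permutation adjusted P = 0.000112), within slides from 0.91 to 0.97, and r was 0.93 without the 2 pigs farthest from the CRY2 median. Of all genes, 0.795% were as closely correlated with that list. NR1D1 followed it with r = 0.73 (rho = 0.72, permutation adjusted P = 0.000112), as closely as 14.6% of all genes. ARNTL was opposed to the erythroid markers (r = -0.60), as closely correlated as 31.1% of all genes, and followed the markers of T cells with r = 0.74 (rho = 0.73, permutation adjusted P = 0.000112) and of NK cells with r = 0.76 (rho = 0.70). Of all genes, 0.83% and 0.475% were as closely correlated with these 2 lists.

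The ARNTL relation with T cell markers ranged from 0.61 to 0.85 within slides, and r was 0.63 without the 2 farthest pigs. That with NK cell markers ranged from 0.21 to 0.96 within slides, and r was 0.69 without these pigs. CRY1 followed the T cell markers with r = 0.60, as 16.5% of all genes did at least as closely, and NR1D2 the NK cell markers with r = 0.51, as 24.3% did. PER3 was opposed to the T cell, NK cell, B cell and neutrophil markers with r = -0.51, -0.54, -0.45 and -0.42, values reached by 32.9%, 18.2%, 17.1% and 8.89% of all genes. It followed the erythroid markers with r = 0.44, reached by 54.3%, and the platelet markers with r = 0.38 (permutation adjusted P = 0.0224), reached by 4.65%. The lists lay on the first component too, the erythroid markers with r = -0.89, the T cell markers with r = 0.69 and the NK cell markers with r = 0.63. With the neutrophil, T cell, B cell and erythroid lists as covariates, 0 of 28 clock gene pairs passed the threshold. Cell composition, RNA per cell and properties of the arrays cannot be told apart on this axis.

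**Figure D4:**
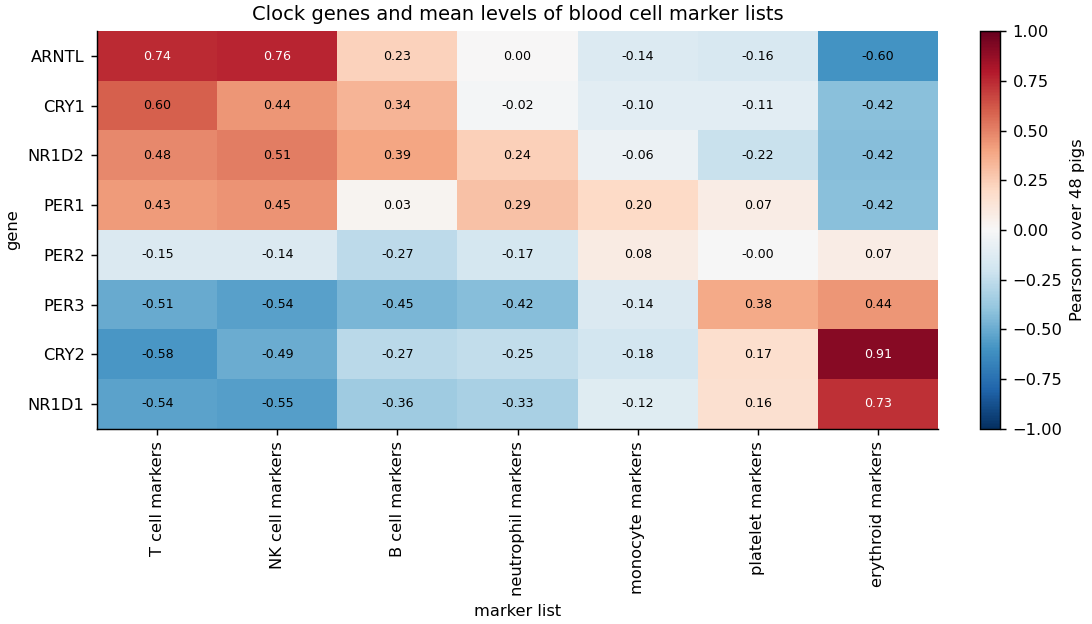
Pearson r over 48 pigs, as deviations from group means, between the 8 clock genes and the mean log2 level of 7 lists of blood cell markers; the colour scale runs from -1 to 1. ARNTL was correlated with T cell (0.74) and NK cell markers (0.76), CRY2 with erythroid markers (0.91), and PER2 passed the threshold with none.

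PER1 moved with genes that glucocorticoids induce. Of 10 listed genes, 8 were measured, and the correlation of each with PER1 was tested by permutation and adjusted over all 10943 other genes, of which 36.8% had a permutation adjusted P below 0.05. Of the 8, 6 passed, all of them positive. FKBP5, a co-chaperone that dampens the glucocorticoid receptor, had r = 0.70 (rho = 0.60, permutation adjusted P = 0.00226), a value reached by 0.0366% of all genes. TXNIP, an inhibitor of thioredoxin, had r = 0.60 (rho = 0.60), reached by 0.749%. CXCR4, a homing receptor of leukocytes, had r = 0.55 (rho = 0.62), reached by 2.09%, and the transcription factor KLF9 had r = 0.52 (rho = 0.55), reached by 4.62%. DDIT4, an inhibitor of mTOR signaling, and DUSP1, a phosphatase of MAP kinases, had r = 0.46 and 0.45, values that 12.6% and 14.7% of all genes reached. Within slides DDIT4 ranged from -0.16 to 0.85 and DUSP1 from 0.13 to 0.82. ZBTB16 (r = -0.33, permutation adjusted P = 0.0690) and SGK1 (r = -0.07, rho = 0.12, permutation adjusted P = 0.756) did not pass, and r for SGK1 was 0.27 without the 2 pigs farthest from the PER1 median.

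After removal of the first component the r values were 0.62 for FKBP5, 0.57 for TXNIP, 0.54 for KLF9 and 0.53 for CXCR4. They were 0.42 for DUSP1, 0.34 for DDIT4, 0.08 for SGK1 and 0.03 for ZBTB16. Without that removal, r was above 0 within all 6 slides for FKBP5, TXNIP, KLF9 and CXCR4, from 0.45 to 0.90 for FKBP5 and from 0.43 to 0.84 for TXNIP. The pig high RFI LF replicate 9 was the highest in both PER1 and FKBP5, and without the 2 pigs farthest from the PER1 median r was 0.56 for FKBP5, 0.61 for TXNIP, 0.58 for CXCR4, 0.49 for KLF9, 0.48 for DDIT4, 0.55 for DUSP1 and -0.27 for ZBTB16.

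The glucocorticoid-induced genes themselves showed the following differences. For diet, HF minus LF, 0 of 8 passed the adjusted threshold (limma), and the median of the 8 was -0.09 against 0.01 for all genes. All 8 lay below 0, where 57.4% of all genes lay above 0, but ZBTB16 and DUSP1 differed by only -0.0018 each. TXNIP had the lowest P-value of the 8, at 4.97 ± 0.35 in HF pigs and 5.22 ± 0.40 in LF pigs (SD, n = 24 each), a difference of -0.25 ± 0.10 (SE, limma P = 0.0208, adjusted P = 0.9995). For line, 1 of 8 passed, against 3.29% of all genes. KLF9 was underexpressed in low RFI pigs, at -0.999 ± 0.18 against -0.75 ± 0.17 (SD, n = 24 each), a difference of -0.24 ± 0.052 (SE, limma adjusted P = 0.00295). DUSP1 (-0.13) and TXNIP (-0.11) followed with adjusted P-values of 0.763 and 0.817.

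**Figure D5:**
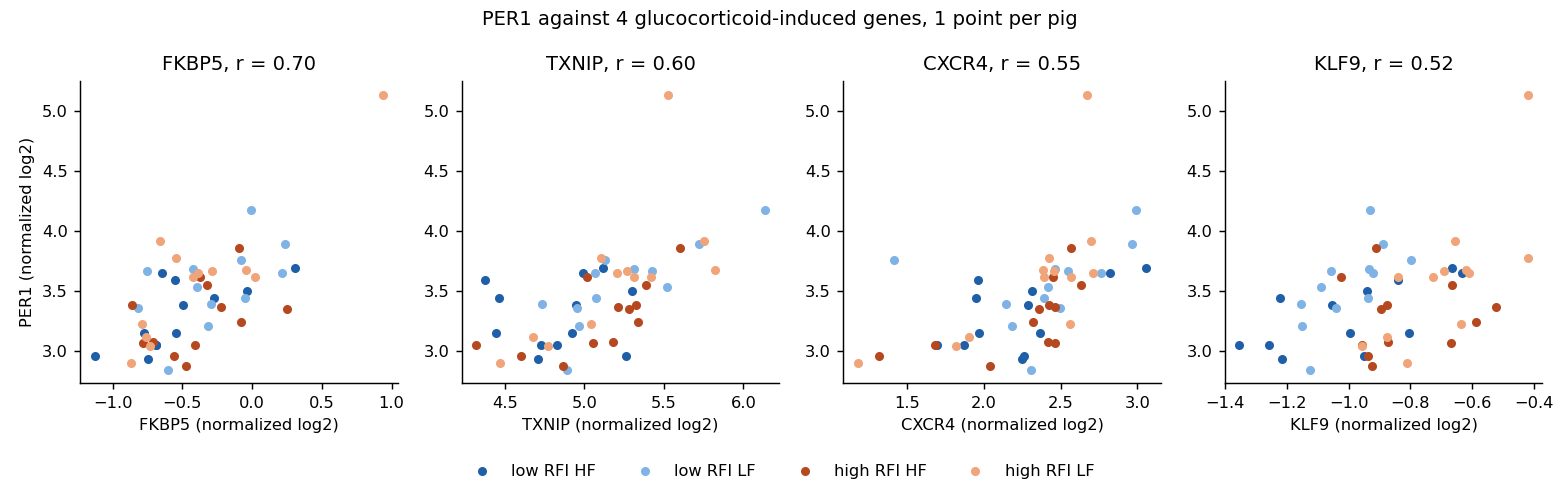
Normalized log2 level of PER1 against that of FKBP5, TXNIP, CXCR4 and KLF9, 1 point per pig, coloured by group, with Pearson r over deviations from group means above each panel. PER1 was correlated with each of the 4 genes (r from 0.52 to 0.70), and high RFI LF replicate 9 is the point at 5.13.

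The genes most like each clock gene over the pigs differed between members. For PER1 they were BTG3, an antiproliferative factor (r = 0.80), NUFIP2 (r = 0.77) and the unnamed locus LOC100522380 (r = -0.71). For ARNTL they were RDX, which links actin to the membrane (r = 0.83), PLAGL1, a zinc finger factor (r = 0.82), and TLK1, a kinase (r = 0.82). For CRY2 they were EFNA3, CASP9 and ADCY4 (each r = 0.97), for NR1D1 EMX2 (r = 0.93), MYH7 and PDGFRB (each r = 0.90), and for PER3 TDRD10 (r = 0.89), GLIPR2 and SLC22A12 (each r = 0.88). For NR1D2 they were TRIM27, CNBP and NGDN (each r = 0.84), for CRY1 LOC100154647, SYNC and APPBP2 (r = 0.71 to 0.72), and for PER2 SLAMF9 (r = 0.85), NUBPL and LOC100152926 (each r = 0.82). No clock gene was among the 3 genes most like another one. The number of genes with an absolute r above 0.5 ran from 708 for PER1 and 764 for PER2 to 5237 for NR1D1 and 5530 for CRY2.

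The members also differed in how much they varied between pigs of a group. The SD within groups was 0.16 for CRY1, 0.19 for ARNTL, 0.22 for PER2, 0.25 for PER3, 0.27 for NR1D1, 0.28 for NR1D2, 0.34 for CRY2 and 0.39 for PER1, and the median over all genes was 0.24. PER1 varied more than 83.5% of all genes and CRY1 more than 9.74%. Slides held 48.3% of the PER3 variance within groups and 25.1% of that of NR1D2, against 1.59% for CRY2 and 7.58% for PER1.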

How the data were processed

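Whole blood RNA of 48 pigs was hybridised to 1-colour Agilent arrays, 1 array per pig. The deposited table holds log2 values that the authors made with R 3.0.2 from the median signal of each spot, minus the array's median, for 37113 retained spots. This was checked against the intensity values of the deposited scanner files and held within 1e-06 on 47 of 48 arrays; the remaining array (high RFI HF replicate 1) was rebuilt from its scanner file. No genome build applies, since spots were named by the gene names in the files. Array number and brightness limit the precision.

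Spots of a gene were averaged. Line, diet and their interaction were fitted with limma 3.58.1 in R 4.3.3 on 10944 genes (and on all spots), with Benjamini-Hochberg adjustment. Pigs are separate animals of each group. Correlations used deviations from group means and 100000 permutations within groups (Python 3.11.15). The scripts were tested on simulated data. Some results are not reported here. Alternatives changed the signal, background correction, normalization, spot filter, blocks, covariates and pigs. The members and all gene lists were chosen with earlier results of these data known. The named genes were the members, list genes with an adjusted P below 0.05, otherwise the 3 with the lowest P for line in the lists of other clock and glucocorticoid-induced genes, and the 3 genes most like each member. All 8 measured glucocorticoid-induced genes and TXNIP for diet were named after their values were seen, as was high RFI LF replicate 9.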

Additional observations from a re-analysis of the deposited data

Results flagged for a closer look

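Spots of clock genes that the normalized table did not retain gave signal. The BTRC spot A_72_P105646 and the HLF spot O10760 were each well above background on 48 of 48 arrays, with median signals of 96.3 and 94 against a local background of 31 for both. BTRC is a subunit of a ubiquitin ligase that acts on PER proteins, and HLF is a relative of DBP. These spots entered the comparisons between groups only where all non-control spots were fitted, and there HLF differed between the lines (0.28 ± 0.072, SE, limma adjusted P = 0.0237).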

How the results depend on the processing

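At an adjusted P below 0.05, no clock gene was called for line, diet or interaction under the alternatives run, the fit with the replicate block included (0, 0 and 0 of 8), and leaving out any 1 pig gave 0 to 0 calls. Some small differences changed sign. With the deposited values in place of the rebuilt array, the line difference was -0.017 for ARNTL, -0.081 for CRY1, -0.024 for CRY2 and -0.063 for NR1D1, and the diet difference 0.101 for ARNTL, 0.052 for PER2, 0.113 for CRY1, 0.188 for NR1D1 and 0.057 for NR1D2. The PER3 line difference was 0.0086 with background-corrected signal centred on the median and 0.0038 with the 75th percentile, and its diet difference -0.026, -0.027 and, with normexp and quantile normalization, -0.026. NR1D2 for diet was 0.0087 with normexp and 0.013 without high RFI HF replicate 1. Without high RFI LF replicate 9 PER1 turned to 0.05 for line and -0.06 for interaction, and over all fits that left out 1 pig the diet differences of ARNTL, PER3, NR1D1 and NR1D2, none above 0.041 in size, and the PER2 interaction (-0.03 to 0.06) crossed 0. The NR1D1 line difference reached 0.25 with background-corrected signal. With marker lists as covariates CRY2 was -0.063 for line and -0.013 for diet. Correlated pairs numbered 20 of 28 in the report, 11 with normexp and quantile normalization, 13 with the brightest spot of a gene, 0 with marker lists as covariates, 1 after removal of the first component, and 8 of 15 for spots at least 4 times the background, where 10 of 15 were past the threshold before. Leaving out 1 pig gave 18 to 21 pairs. With the replicate block 17 pairs passed. The labels do not say what a replicate number stands for. Same-numbered pigs of different groups had correlations of -0.62 to 0.72, median 0.22, against a median of 0.10 for pigs with other numbers on the same slide. For 22 pigs the highest r was with a pig of their own number. Whether the numbers mark sets of pigs was not tested. Outside the fit with the replicate block, the numbers were not taken as pairs. PER3 and NR1D1 had the lowest signal over background, and the part of this in their values was not tested.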
